A study of Mus musculus with 2 samples.

Results

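Cluster 10 is a group of cells in the authors' own clustering of mouse natural killer (NK) cells, the innate lymphocytes that kill stressed, infected and transformed cells. It was marked by its high RNA content and by Mki67 and Top2a, a pair of genes of dividing cells. Its members were the cells that the deposited matrix numbers as cluster 10 and that the authors' hashtag classification gave to a single population. There were 273 of them among 7479 such singlets, or 3.65%. They were compared with the 7206 singlets of all other clusters.

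The cells came from C57BL/6 mice, 12 weeks old, and were sorted as negative for lineage markers and positive for NK1.1 and CD49b. The labels describe MC38 tumours under the skin (MC38 is a colon carcinoma line of the mouse), and whether the naive mice bore one is not stated. The cells came from spleen, bone marrow and tumour of mice fed ad libitum or put on a cyclic fasting diet, and the tag list names ad libitum, fasted and refed cells for each tissue, plus naive spleen cells. Each of these 10 populations carried 1 hashtag antibody, and all were run together in 1 lane of a droplet instrument that tags each RNA molecule with a unique molecular identifier (UMI). The sources used here do not give what naive stands for, the fasting schedule or the number of mice per population. Each population is therefore 1 sample, differences have no replicate check, and p-values were not computed. Intervals are exact 95% intervals that cover counting error only.

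Most NK cells in a resting mouse do not divide. New NK cells arise from dividing precursors and immature cells in the bone marrow, and mature cells divide in the periphery after cytokine or target signals. A cell that enters S phase makes the machinery of DNA replication and the replication-dependent histones, and in G2 and M phase it makes cyclin B, the kinase Cdk1 and the proteins of the spindle and kinetochore. Many G2 and M phase genes are controlled through short promoter elements, a CHR element read by the DREAM and MuvB complexes and CCAAT boxes read by NF-Y, while many S phase genes have E2F sites.

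These elements are shown in 4 RefSeq promoter windows (GRCm38.p6), because the genes of both phases lead the description of cluster 10. Each window runs from 250 bases before to 50 bases after the annotated start of the gene, 5′ to 3′ on the strand of the gene, with every match to 1 of the searched motifs in capitals. The CHR element was searched as TTTGAA and the NF-Y box as CCAAT. The E2F site was searched in the form TTTCCCGC and in the form TTTGGCGC. Both strands were searched, so a capital run can also be the reverse complement of a motif. Mki67 lies at chr7:135716330-135716629, Top2a at chr11:99024140-99024439, Cdc20, an activator of the anaphase-promoting complex, at chr4:118437294-118437593 and Mcm6, a subunit of the replicative helicase, at chr1:128359656-128359955, all on the minus strand.
Mki67: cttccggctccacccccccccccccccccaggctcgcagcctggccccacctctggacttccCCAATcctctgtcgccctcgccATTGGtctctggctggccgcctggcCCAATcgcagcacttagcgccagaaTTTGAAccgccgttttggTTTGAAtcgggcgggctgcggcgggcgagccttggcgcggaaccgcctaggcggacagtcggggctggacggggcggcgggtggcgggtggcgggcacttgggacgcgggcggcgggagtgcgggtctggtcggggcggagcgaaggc
Top2a: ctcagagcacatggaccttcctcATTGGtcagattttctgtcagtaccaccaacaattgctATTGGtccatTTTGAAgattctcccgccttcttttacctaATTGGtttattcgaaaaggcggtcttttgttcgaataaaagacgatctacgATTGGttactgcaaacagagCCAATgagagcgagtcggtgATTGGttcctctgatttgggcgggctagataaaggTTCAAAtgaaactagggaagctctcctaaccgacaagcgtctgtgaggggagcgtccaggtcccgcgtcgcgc
Cdc20: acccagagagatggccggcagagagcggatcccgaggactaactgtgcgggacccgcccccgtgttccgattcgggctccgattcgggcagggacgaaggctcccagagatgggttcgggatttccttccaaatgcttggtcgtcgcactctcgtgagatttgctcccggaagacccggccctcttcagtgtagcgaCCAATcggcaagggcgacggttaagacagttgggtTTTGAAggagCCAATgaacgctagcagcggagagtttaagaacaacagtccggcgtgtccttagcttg
Mcm6: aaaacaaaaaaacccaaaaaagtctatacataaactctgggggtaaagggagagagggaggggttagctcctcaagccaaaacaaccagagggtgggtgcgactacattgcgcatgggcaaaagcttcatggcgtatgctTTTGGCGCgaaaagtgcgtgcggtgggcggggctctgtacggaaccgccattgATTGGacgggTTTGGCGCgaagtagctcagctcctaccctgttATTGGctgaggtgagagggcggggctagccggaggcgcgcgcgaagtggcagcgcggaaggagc

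The first 3 windows, of G2 and M phase genes, held both the CHR and the NF-Y motif. The Mcm6 window held the second E2F form at 2 places, the NF-Y motif at 2 places and no CHR motif. Of the 30 genes of the G2 and M phase list, 25 had a RefSeq window, and 18 of these 25 (72.0%) held the CHR motif, against 20.2% of all 27025 genes with a window. The NF-Y motif stood in 20 of the 25 (80.0%), against 41.1% of all genes, and both motifs together in 16 (64.0%), against 7.97%. Of the 28 genes of the S phase list, 24 had a window. Among these 24, an E2F motif was found in 7 (29.2%), against 1.80% of all genes, and the CHR motif in 2 (8.33%). The NF-Y motif stood in 11 of the 24 (45.8%), near its share of all genes. Of the 25 genes of the G2 and M phase list, 0 held either E2F form, which says only that these letters are not in the windows. The members of both lists are known cell cycle genes, so the counts describe their promoters and do not come from the cells measured here.

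Cluster 10 was rich in RNA. Its singlets had a median of 16287 UMIs (interquartile range 11566 to 23451, lowest 1444, highest 85495), against 4324.5 (3159 to 6150.5) in the other clusters, a ratio of 3.77. The median number of genes per cell was 3561 in cluster 10 and 1609 in the other clusters. The 273 cells held 11.8% of the UMIs of all singlets. Cluster 11, of 89 singlets, was deeper still with a median of 26877 UMIs, and cluster 2, of 1042 singlets, followed with 6624.5. High RNA content was thus shared with cluster 11.

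Depth was not uniform within the cluster. In bone marrow, cluster 10 cells had a median of 19137.5 UMIs (ad libitum), 15129 (fasted) and 20635 (refed), against 6244, 4652.5 and 6765.5 in the other clusters of the same populations. In spleen the medians were 12777.5 (naive), 14539 (ad libitum) and 10966 (refed) in cluster 10 and 4341, 4188 and 4336 elsewhere. The 5 cluster 10 cells of the fasted spleen were the exception. Their median of 3119 UMIs was below the 3462.5 of the other fasted spleen cells. They held 0 UMIs of Mki67 and 0 of Top2a, but 5 cells of 1728 to 5648 UMIs are too few and too shallow to tell whether such cells divided.

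**Figure D1:**
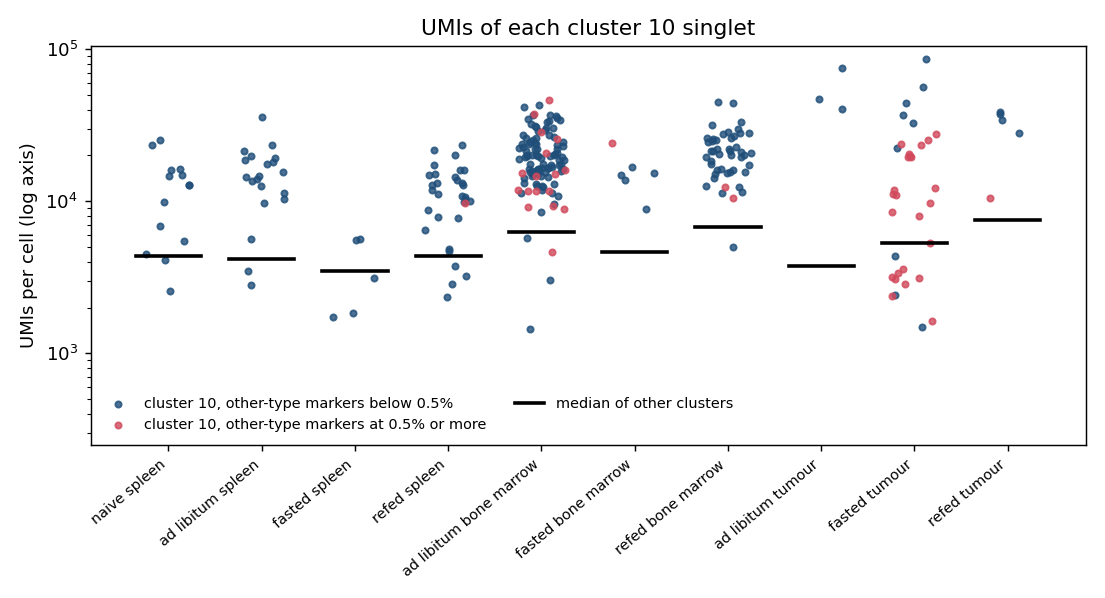
UMIs of each of the 273 cluster 10 singlets (points, log axis) in the 10 populations, with the median of the other clusters of the same population as a black line. Red points are cells with 0.5% or more of their UMIs from markers of another cell type. In every population but the fasted spleen, the median cluster 10 cell lies above the black line, and the 24 red points of the fasted tumour outnumber its 9 blue ones.

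Hashtag doublets, cells that carry more than 1 population's tag, were frequent in the cluster and were left out. Of 559 classified cells of cluster 10, 286 were such doublets, or 51.2% (46.9% to 55.4%), against 42.5% (41.6% to 43.3%) in the other clusters. Single clusters ranged from 22.6% to 80.3%. The doublets of cluster 10 had a median of 20414.5 UMIs. Doublets of cells from the same population carry 1 tag and are not seen this way. Scrublet, a doublet caller that works on the expression profile, marked 0 of the 13118 cells and therefore gave no usable call.

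Not all cells of the cluster carried NK cell RNA. Markers of 10 other cell types were summed in each cell, and 46 of the 273 cells (16.8%, 12.6% to 21.8%) had 0.5% or more of their UMIs from the markers of 1 of them, against 35 of 7206 cells (0.486%) in the other clusters. Of the 46, 40 passed this level for monocyte or macrophage markers, 10 for B cell markers, 9 for neutrophil markers and 8 for dendritic cell markers, and a cell can pass for several. The B cell passes rest almost wholly on Cd74, a chaperone of class II molecules in many antigen-presenting cells, with 2571 UMIs in cluster 10, while Cd79a and Ms4a1 were at 0 and Ebf1 and Pax5 at 1 UMI each. In the fasted tumour the dendritic cell passes rest mainly on H2-Ab1, with 1244 UMIs there, while Xcr1, Siglech and Clec9a were at 0. No cell passed it for T cell, plasma cell, basophil or mast cell, erythroid, tumour or stromal cell, or ILC2 or progenitor markers. A count of 0 of 273 cells allows a share of up to 1.10% by the floor of 3 counts and 1.34% by the exact interval. The highest cell below the level had 0.362% and the lowest one above it 0.504%, with 4 cells between 0.25% and 0.5% and 4 between 0.5% and 1%.

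These 46 cells differed from the other 227 in more than the markers that chose them. Ncr1, which encodes the NK receptor NKp46, was detected in 13 of the 46 (28.3%) and in 220 of the 227 (96.9%). At least 3 of the 7 NK cell markers were detected in 8 of the 46 and in 222 of the 227 (97.8%), and 15 of the 46 had none. Mki67 was detected in 11 of the 46 (23.9%) and in 176 of the 227 (77.5%). Their depth differed as well, with a median of 11667 UMIs in the 46 cells and 17293 in the 227.

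The 46 cells were spread unevenly over the populations. The fasted tumour had 24 of them among 33 cluster 10 cells, the ad libitum bone marrow 17 of 108, the refed bone marrow 2 of 47, the fasted bone marrow 1 of 6, the refed spleen 1 of 32 and the refed tumour 1 of 5. In the other 4 populations there was none. The sort on NK1.1 and against lineage markers is one that would remove most such cells. Results are given below with and without the 46 cells where this matters.

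**Figure D2:**
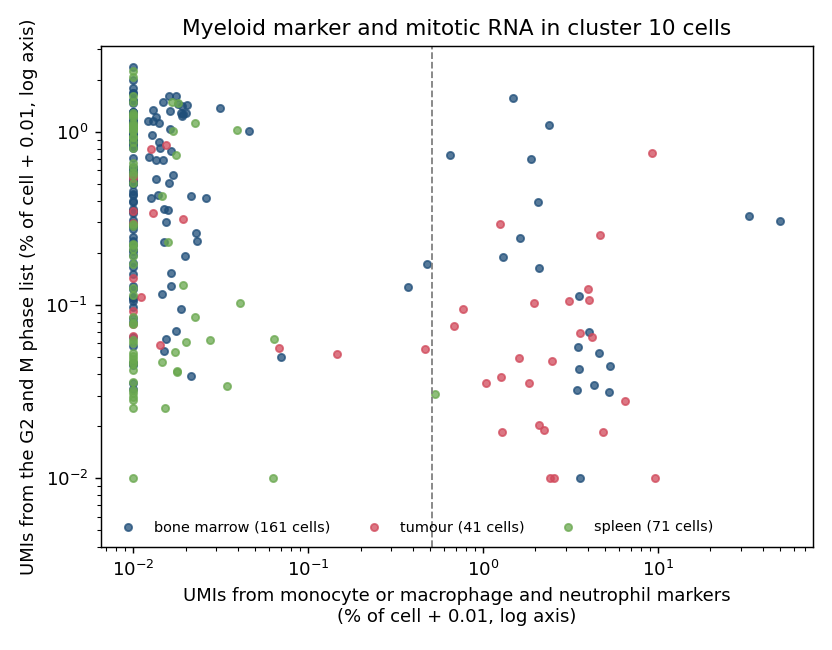
Each point is 1 of the 273 cluster 10 singlets, coloured by tissue, with the percentage of its UMIs from monocyte or macrophage and neutrophil markers (horizontal) and from the G2 and M phase list (vertical), both plus 0.01 on log axes. The dashed line marks 0.5% summed over the plotted markers. Most cells lie at the left edge, with no such UMI or close to it, and the cells right of the line are from bone marrow and tumour with 1 from the spleen.

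Cluster 10 was mainly a bone marrow population. Of its 273 cells, 161 (59.0%) came from bone marrow, 71 (26.0%) from spleen and 41 (15.0%) from tumour. The cluster made up 15.4% of bone marrow singlets (161 of 1048, interval 13.2% to 17.7%), 4.35% of tumour singlets (41 of 942, 3.14% to 5.86%) and 1.29% of spleen singlets (71 of 5489, 1.01% to 1.63%), and the 3 intervals did not overlap. Without the cells rich in other-type markers the shares were 13.8% in bone marrow (141 of 1021, 11.8% to 16.1%), 1.77% in tumour (16 of 903, 1.02% to 2.86%) and 1.28% in spleen (70 of 5474, 0.998% to 1.61%). The tumour and spleen intervals then overlapped, and the bone marrow interval still lay above both.

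In bone marrow the share of cluster 10 was 18.8% of ad libitum cells (108 of 575, 15.7% to 22.2%), 4.41% of fasted cells (6 of 136, 1.64% to 9.36%) and 13.9% of refed cells (47 of 337, 10.4% to 18.1%). The fasted share was the lowest, and its interval overlapped neither of the others, while the ad libitum and refed intervals overlapped. Without the cells rich in other-type markers, the shares were 16.5% (91 of 553), 3.73% (5 of 134) and 13.5% (45 of 334), in the same order. The fasted value rests on 6 cells.

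In spleen the share was 1.71% of naive cells (14 of 818, 0.939% to 2.85%), 1.11% of ad libitum cells (20 of 1804, 0.678% to 1.71%), 0.359% of fasted cells (5 of 1391, 0.117% to 0.837%) and 2.17% of refed cells (32 of 1476, 1.49% to 3.05%). The interval of the fasted share overlapped that of the ad libitum share and lay below those of the naive and refed shares. A UMI of Mki67 or Top2a was found in 11 of 14 naive, 17 of 20 ad libitum, 0 of 5 fasted and 22 of 32 refed cluster 10 cells, whose depths differed as given above.

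In tumour the share was 6.52% of ad libitum cells (3 of 46, 1.37% to 17.9%), 4.12% of fasted cells (33 of 801, 2.85% to 5.74%) and 5.26% of refed cells (5 of 95, 1.73% to 11.9%), and the 3 intervals overlapped. The fasted value is the 1 share that moved with the cells of other types. Without them it was 1.17% (9 of 769, 0.537% to 2.21%), with 6.98% (3 of 43) in ad libitum and 4.40% (4 of 91) in refed tumour, whose intervals still overlapped it. Shares are within a population.

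**Figure D3:**
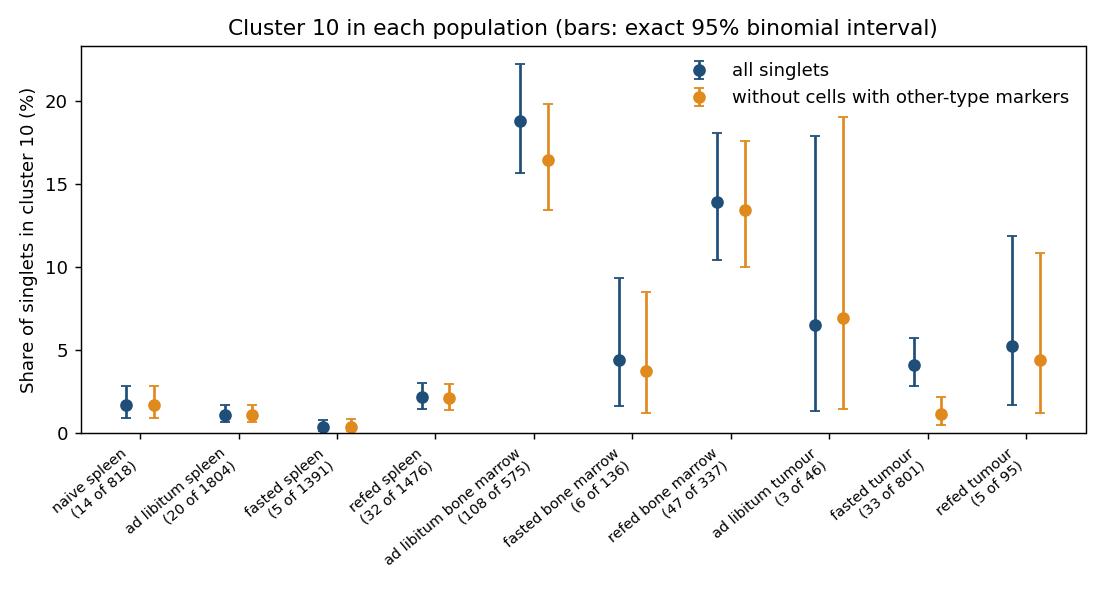
Share of singlets in cluster 10 (percent, vertical axis) in each of the 10 populations, with exact 95% binomial intervals as bars. Blue points use all singlets and orange points leave out cells with 0.5% or more of their UMIs from markers of another cell type. Fasted points are the lowest in spleen and in bone marrow, and in the fasted tumour the orange point (1.17%) lies below the blue one (4.12%).

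The genes of cell division described the cluster, as they helped to define it, so the following levels are a description and no test. Mki67, a chromosome-coating protein of dividing cells (mm10, chromosome 7, 135689784 to 135716361), had 561 CPM (UMIs of the gene per 1000000 UMIs of the summed cells) in cluster 10 of ad libitum bone marrow and 593 CPM in refed bone marrow, against 221 and 134 CPM in the other clusters. In spleen it had 547 CPM (ad libitum) and 376 CPM (refed) in cluster 10, against 35.4 and 28.3 CPM elsewhere. In the naive spleen the values were 781 CPM in cluster 10 and 19.6 CPM elsewhere. In tumour it had 204 CPM (ad libitum), 51.1 CPM (fasted) and 236 CPM (refed) in cluster 10, against 63.5, 26.2 and 21.4 CPM, and the low fasted value comes from the population in which 24 of 33 cells were rich in other-type markers. In the 6 fasted bone marrow cells Mki67 had 608 CPM, against 88.7 CPM elsewhere, and in the fasted spleen it was at 0 in cluster 10 and at 16.9 CPM elsewhere.

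Top2a encodes the topoisomerase that untangles chromosomes (chromosome 11, 98992943 to 99024189). It reached 894 CPM (ad libitum), 1162 CPM (fasted) and 1072 CPM (refed) in cluster 10 of the bone marrow, against 294, 85.6 and 189 CPM in the other clusters. After thinning, a random draw of 1500 UMIs from each cell, Mki67 was detected in 101 of 271 cluster 10 cells (37.3%), against 3.83% of cells in the other clusters. Before thinning the shares were 68.5% and 7.54%. For Top2a the thinned shares were 47.6% and 7.47%. Thinning left out 2 cluster 10 cells and 500 other cells that were shallower. The genes were therefore more frequent at equal depth, and cluster 11, deeper than cluster 10, had Mki67 in 6 of 88 thinned cells (6.82%). Both the S phase and the G2 and M phase list were detected in 72.3% of thinned cluster 10 cells (80.4% without the 46 cells) and in 30.2% of the other cells.

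Gene lists were compared as the log2 ratio of CPM + 5 in cluster 10 over the other clusters, taken within each of the 5 populations with at least 20 cluster 10 cells, and summarised by the median over these 5. Over the 7018 genes at 20 CPM or more, the median ratio was 0.01. At least 2-fold higher in cluster 10 were 426 genes, or 6.07% of all tested, and at least 2-fold lower 174, or 2.48%.

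The replication genes were higher in cluster 10 as a list. All 28 measured members of the S phase list were higher, 27 of them at least 2-fold, with a median of 1.62 and a range of 1.08 (fasted tumour) to 2.23 (refed spleen) over the populations. Rrm2, the small subunit of ribonucleotide reductase that makes deoxyribonucleotides, had a ratio of 2.90. Tyms, the enzyme of thymidylate synthesis, had 2.46. Mcm5 and Mcm6, helicase subunits, had 1.64 and 1.19, and Pcna, the sliding clamp of DNA polymerase, had 1.11. Histone genes that are expressed with replication were higher in 15 of 15 members, with a median of 2.08. Hist1h1b, a linker histone, led the named genes at 3.44, with 1540 CPM (ad libitum bone marrow) and 1151 CPM (ad libitum spleen) in cluster 10, against 160 and 101 CPM elsewhere. Hist1h2ae had 3.11, Hist1h2ab 3.05 and Hist1h3c 3.0. Near-identical copies of histone genes can share reads, so the split among them is uncertain.

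The mitotic genes showed the highest list median. All 30 measured members of the G2 and M phase list were at least 2-fold higher, with a median of 2.25, from 1.16 in the fasted tumour to 2.97 in the ad libitum spleen. Without the 46 cells rich in other-type markers the median was 2.51. Birc5, the survivin subunit of the chromosomal passenger complex, had 3.42, Ccnb2, a B-type cyclin, 3.24, Nusap1, a spindle protein, 3.13 and Cdk1, the mitotic kinase, 2.98. Stmn1, which destabilises microtubules, had 3.16, Pbk, a mitotic kinase, 3.11, Spc24, a kinetochore subunit, 3.05 and Cdca8, another chromosomal passenger subunit, 2.94. Cdk1 had 244 CPM (ad libitum bone marrow) and 206 CPM (ad libitum spleen) in cluster 10, against 38.1 and 19.2 CPM elsewhere.

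Growth and energy genes were shifted by less. Nucleolar and MYC-linked growth genes were higher in 17 of 19 members, with a median of 0.68 and none at 2-fold. Ncl, the nucleolar protein nucleolin, had 0.76 and Srm, which makes spermidine, 0.69, while Myc itself had -0.21. Proteasome genes were higher in 18 of 18 members with a median of 0.55, oxidative phosphorylation genes in 26 of 28 with 0.38, and glycolysis genes in 12 of 15 with 0.41. Ldha, lactate dehydrogenase, had 0.78. The lists for fatty acid oxidation (0.05) and for sterol and fatty acid synthesis (0.04) lay close to the median of all genes.

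NK cell genes were lower in relative terms. Of 14 NK identity genes, 14 were lower in cluster 10, with a median of -0.67, and -0.61 without the 46 cells. Ncr1 had -0.82, with 505 CPM in cluster 10 of ad libitum bone marrow and 803 CPM in that of ad libitum spleen, against 898 and 1321 CPM elsewhere. Klrb1c, which encodes NK1.1, had -1.10, the transcription factor gene Tbx21 -0.76 and Eomes -0.46, the last with ratios on both sides of 0 over the populations. In the fasted tumour the list median was -1.92, and in that population 24 of 33 cluster 10 cells were rich in other-type markers. A CPM is a share of a cell's RNA, and Ncr1 was detected in 220 of the 227 cells not rich in such markers.

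Genes of NK cell maturation and effector function were among the lowest. Ccl5, a chemokine abundant in NK cells, led with a ratio of -2.50 (range -3.42 to -1.77). It had 2146 CPM (ad libitum bone marrow) and 5534 CPM (ad libitum spleen) in cluster 10, against 12160 and 21923 CPM elsewhere. S1pr5, a receptor by which mature NK cells leave the bone marrow, had -1.81, Ifng, interferon gamma, -1.72, and Ccl4, another chemokine, -1.69. Bcl2, which protects from apoptosis, had -1.63, Klra9 and Klra8, Ly49 receptors, -1.81 and -1.62, Clec2d, a ligand of the NK receptor family, -1.56, and Gimap3, a GTPase of lymphocytes, -1.93. The Ly49 genes are close paralogs, and their counts are uncertain for that reason. Camk2n1 (-2.21), Phactr3 (-2.06) and Tecpr1 (-2.04) completed the 12 lowest named genes.

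As lists, the mature NK genes had 11 of 12 members lower with a median of -0.76, and -1.05 without the 46 cells. The exception, Cx3cr1 at 0.65, is also a monocyte gene, and was at -0.11 without the 46 cells. The immature NK list was lower in 9 of 9 measured members with a median of -1.10, but its median was 0.34 in ad libitum spleen, and -0.58 without the 46 cells. Cytokine and chemokine genes were lower in 7 of 7 (median -1.63) and cytotoxic effector genes in 9 of 12 (-0.34). Granzymes of activated NK cells were lower in 6 of 6 (-0.43) and immediate early genes in 13 of 13 (-0.75). Quiescence genes were lower in 11 of 16 (-0.47) and glucocorticoid target genes in 10 of 12 (-0.61). Without the 46 cells these medians were, in the same order, -0.98, -0.45, -0.74, -0.93, -0.41 and -0.85. Glucocorticoid targets were higher in the fasted tumour alone (0.78), and interferon-induced genes ranged from -1.12 to 0.77 over the populations. The list of ILC1 and tissue residency genes had 5 measured members and a median of 0.18, with populations on both sides of 0.

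**Figure D4:**
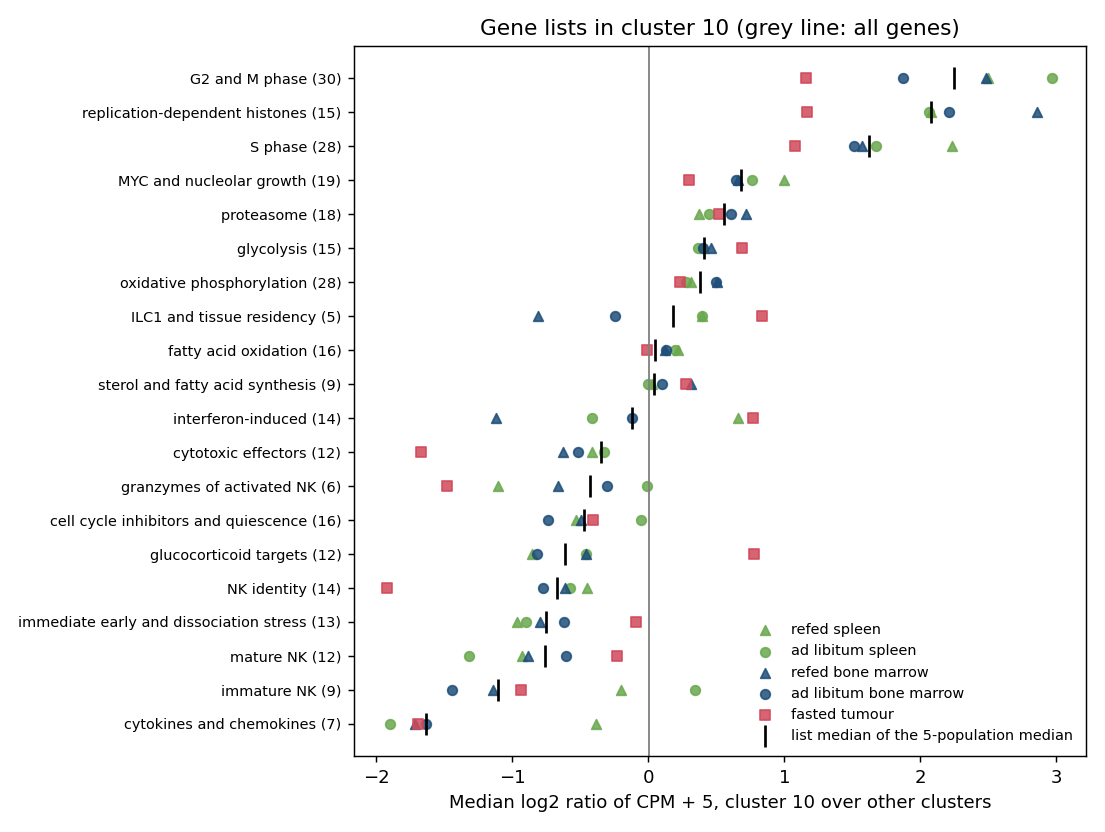
Median log2 ratio of CPM + 5 in cluster 10 over the other clusters (horizontal) of 20 gene lists (rows, number of measured members in brackets), for each of the 5 populations with at least 20 cluster 10 cells. The black bar is the list median of the values summarised over the 5 populations, and the grey line is the median of all genes (0.01). The S phase, histone and G2 and M phase lists lie right of 1 in every population, and the red squares of the fasted tumour depart most from the others for the NK identity (-1.92) and glucocorticoid (0.78) lists.

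Cluster 10 was also set against the next clusters by depth. Of cluster 11, 95.5% of singlets were tumour cells (85 of 89), and of cluster 2, 59.8% were spleen cells (623 of 1042), against 15.0% and 26.0% in cluster 10, so cluster and tissue cannot be told apart in these values. All 30 G2 and M phase genes were higher in cluster 10 than in cluster 11, with a median of 2.56, and than in cluster 2, with 3.28, where the medians of all genes were 0.27 and 0.12. All 28 S phase genes were higher as well, with medians of 0.97 and 1.97. Glycolysis genes were lower than in cluster 11 in 15 of 15 members (median -0.71) and higher than in cluster 2 in 12 of 13 (0.61). Granzymes of activated NK cells were lower than in cluster 11 in 6 of 6 members (-3.27) and higher than in cluster 2 in 5 of 5 (3.89). Gzmb had 5134 CPM in cluster 11, against 689 CPM in the 227 cluster 10 cells and 310 CPM in cluster 2.

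Cluster 10 held a large part of the cell cycle RNA of the whole series. Of all Mki67 UMIs of singlets, 56.2% were in cluster 10, as were 53.9% of Top2a UMIs, 50.9% of UMIs of the G2 and M phase list and 34.9% of those of the S phase list. The part differed by tissue. For the G2 and M phase list it was 72.9% (ad libitum), 65.5% (fasted) and 76.3% (refed) in bone marrow. In spleen it was 24.5%, 0.252% and 25.6% in the same order, in tumour 35.7%, 20.2% and 46.2%, and in naive spleen 42.9%. Set beside these, cluster 10 held 41.4%, 12.7% and 32.7% of all UMIs in bone marrow, 3.40%, 0.335% and 4.92% in spleen, 28.3%, 9.18% and 11.7% in tumour, and 4.34% in naive spleen. The part of the mitotic RNA was above the part of all UMIs in every population but the fasted spleen. For Mki67 alone, 64.4% of the naive spleen UMIs lay in cluster 10. Other clusters of the ad libitum bone marrow had Mki67 in 13.9% of thinned cells (62 of 446), against 3.12% in ad libitum spleen, so cells with this gene were also found outside cluster 10. In the same measure cluster 10 had 88.3% of all UMIs of Lyz2, the lysozyme gene of myeloid cells.

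Diet differences of whole populations were therefore computed with and without cluster 10. The cluster is marked by these genes. Where its part of their UMIs differs between diets, leaving it out moves the ratio by construction, so the values are a description. In such summed counts, fewer cells of a type and less RNA per cell cannot be told apart. In spleen, Mki67 had 16.8 CPM in all fasted cells, against 52.8 CPM in all ad libitum cells, a log2 ratio of -1.41 (interval -1.99 to -1.32, for the ratio without the added 5 CPM). Without cluster 10 the values were 16.9 CPM in fasted cells and 35.4 CPM in ad libitum cells, a ratio of -0.89 (-1.43 to -0.73). The summed G2 and M phase list gave -0.76 with cluster 10 and -0.40 without it. Cluster 10 held 35.3% of the Mki67 UMIs of ad libitum spleen and 0% of those of fasted spleen, so a smaller ratio without it was fixed in advance. The interval of the Mki67 ratio in the remaining spleen cells still left out 0.

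In bone marrow the ratios moved in both directions. Mki67 in fasted over ad libitum cells was -1.20 with cluster 10 and -1.27 without it, Top2a -1.27 and -1.72, and the G2 and M phase list -0.92 and -1.15. The S phase list was smaller in size without the cluster, at -1.35 (-1.47 to -1.23) with cluster 10 and -0.99 (-1.15 to -0.84) without it. Fewer cycle transcripts in the fasted marrow were therefore also found in its other clusters. In tumour the fasted over ad libitum ratio of the G2 and M phase list was -1.10 with cluster 10 and -1.13 without it, that of Mki67 -1.69 and -1.13, and that of the S phase list -0.58 and -0.35.

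Refed over fasted ratios went the other way. In spleen Mki67 was 1.21 with cluster 10 and 0.61 without it, and the G2 and M phase list 0.55 and 0.19. In bone marrow the list was 0.70 and 0.53. In tumour Mki67 was 0.62 (0.25 to 1.14) with cluster 10, but -0.24 (-0.98 to 0.34) without it, and the G2 and M phase list was 0.62 and 0.09. The higher refed level of mitotic genes in tumour was not seen outside cluster 10, where 5 refed and 33 fasted tumour cells decide the value and 24 of the 33 were rich in other-type markers. The S phase list in tumour was 0.63 with cluster 10 and 0.54 (0.46 to 0.62) without it, so its higher refed level was also found in the other clusters.

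Within cluster 10, diets and tissues were compared in 4 pairs with enough cells, which were 32 refed and 20 ad libitum spleen cells and 47 refed and 108 ad libitum bone marrow cells. Fasted spleen, with 5 cells, and fasted bone marrow, with 6, were too few. The pairs share populations, so their ratios are not independent of each other. Among genes at 20 CPM or more in the spleen pair, 324 of 5632 (5.75%) were at least 2-fold higher in refed and 282 (5.01%) at least 2-fold lower. In the bone marrow pair 12 of 5321 (0.226%) were higher and 91 (1.71%) lower in refed.

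Refed spleen cells of cluster 10 had less mitotic RNA. Of 30 G2 and M phase genes, 28 were lower in refed cells, 10 of them at least 2-fold, with a median of -0.68, beside 0.00 for all genes. The interval of 13 members lay below 0 and that of none above it. Cdc20 had 36.0 CPM in refed spleen cells, against 186 CPM in ad libitum spleen cells, a ratio of -2.22 (-3.36 to -1.48). Ccnb1, cyclin B1, had 19.4 CPM in refed and 103 CPM in ad libitum cells (-2.15, -3.84 to -1.20), and Ube2c, the ubiquitin-conjugating enzyme that works with Cdc20, had 163 CPM in refed and 468 CPM in ad libitum cells (-1.49, -1.98 to -1.07). Cenpa, the centromere histone, had -1.35 and Cdkn3, a phosphatase of the cell cycle, -1.63. Per cell, the median share of G2 and M phase UMIs was taken over the 31 refed cells below the 0.5% level for other-type markers. It was 0.105% (interquartile range 0.0397% to 0.634%), against 0.524% in the 20 ad libitum cells (0.189% to 0.946%). The ranges of the cells thus overlapped.

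S phase genes moved the other way in the same pair. Of 28 members, 24 were higher in refed spleen cells, with a median of 0.45 and 9 intervals above 0. Mcm3 had 196 CPM in refed cells, against 86.3 CPM in ad libitum cells (1.14, 0.52 to 1.89), and Mcm5 183 CPM in refed cells, against 103 CPM in ad libitum cells (0.80, 0.19 to 1.49). Dtymk, thymidylate kinase, had 1.23. Per cell, the median share of S phase UMIs was 0.349% in refed and 0.205% in ad libitum cells. With every cell thinned to 1500 UMIs, which removes the larger weight of deep cells, the S phase median was 0.03 and the G2 and M phase median -0.62. The median of all genes was 0.28 in that setting, above that of the S phase list.

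Other genes set the refed spleen cells apart. Ccl4 had 694 CPM in refed cells, against 103 CPM in ad libitum cells (2.70, 2.21 to 3.34). Ccl3, a related chemokine, had 1.28, Ifng 1.37, Phgdh, the first enzyme of serine synthesis, 1.25, Txn2, mitochondrial thioredoxin, 1.39, Prpf19, a splicing factor, 1.48, and Tspan13, a tetraspanin, 1.33. Without the 1 refed spleen cell rich in other-type markers, Ifng was at 0.73. Of 6 measured cytokine and chemokine genes, 5 were higher, with a median of 1.33. Lower in refed cells were Gzmc, a granzyme, with -2.61, S100a4, a calcium-binding protein, with -2.05, and Lgals3, galectin-3, with -1.45. Gzmc was at -0.84 without its highest cell in each population, so its value rests largely on single cells. Interferon-induced genes had a median of 1.22, but -0.16 without the single cell rich in other-type markers.

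In bone marrow, refed and ad libitum cluster 10 cells were closer. Mki67 had 593 CPM in refed and 561 CPM in ad libitum cells (0.08, -0.06 to 0.22). The G2 and M phase list had 26 of 30 members higher in refed cells with a median of 0.15, and the S phase list 20 of 28 with 0.10. With thinned cells the S phase median was -0.03, beside 0.02 for all genes. The genes named as lowest in refed cells were S100a9, Camp, S100a8, Ngp, Prtn3, Elane, Mpo and Ctsg, all known from neutrophils or their precursors. S100a9 had 8.99 CPM in refed cells, against 2542 CPM in ad libitum cells, and a ratio of -7.51, which became -0.46 without its highest cell and 0.029 without the cells rich in other-type markers. Prtn3 had 0 UMIs in refed and 446 in ad libitum cells, at least 67.9-fold lower against a floor of 3 UMIs in the refed population. Cells rich in other-type markers numbered 2 in refed and 17 in ad libitum bone marrow. Without them Camp (-0.21), Ngp (-0.01) and Elane (-0.28) were close to 0, while Prtn3 (-2.33), Mpo (-3.48) and Ctsg (-2.70) stayed lower in refed cells. All 282 Mpo UMIs of cluster 10 lay in 4 cells. Among the 91 ad libitum cells left, a cell had 0.472% of its UMIs from monocyte or macrophage and neutrophil markers. Another had 0.362%, and their shares from NK cell markers were 0.00859% and 0.0204%. Whether these 3 genes rest on such cells was not tested.

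The 8 genes named as highest in refed bone marrow kept their sign without those cells. Ccl4 was higher in refed cells (230 CPM, against 90.3 CPM in ad libitum cells, 1.30), but 0.23 without its highest cell in each population. Cldnd1, a claudin-like membrane protein, had 1.02 (0.70 to 1.49) and Klrc1, the NKG2A receptor, 0.51. Tuba1a, a tubulin, had 0.55, Lockd, a noncoding RNA gene near Cdkn1b, 0.63, Hikeshi, a nuclear import factor of heat shock proteins, 0.55, Ccar1, a cell cycle and apoptosis regulator, 0.49 and Ilf2, an RNA-binding protein, 0.48. Gzmb was lower, with 142 CPM in refed and 368 CPM in ad libitum cells (-1.34, -1.64 to -1.11). Of 7 measured interferon-induced genes, 7 were lower in refed cells, with a median of -1.13, and -0.92 without the cells rich in other-type markers.

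Bone marrow cells of cluster 10 had lower levels of mature NK genes than spleen cells of the cluster. In ad libitum mice, 275 of 5569 genes (4.94%) were at least 2-fold higher in bone marrow and 192 (3.45%) at least 2-fold lower. In refed mice 147 of 5497 (2.67%) were higher and 275 (5.0%) lower. The mature NK list had 11 of 11 measured members lower in refed bone marrow, with a median of -1.53, and 7 of 9 lower in ad libitum bone marrow, with -1.01. S1pr5 had 3.0 CPM in refed bone marrow, against 52.6 CPM in refed spleen (-2.85, -6.53 to -2.37), and 5.02 CPM in ad libitum bone marrow, against 39.8 CPM in ad libitum spleen (-2.16). The other clusters also had less S1pr5 in bone marrow, with 23.8 CPM, against 131 CPM in spleen (refed). Their ad libitum values were 38.7 CPM in bone marrow and 152 CPM in spleen. Cma1, a chymase of mature mouse NK cells, had -2.11 and Klrg1, a receptor of late maturation, -2.05 in the ad libitum pair. Zeb2, a transcription factor of terminal maturation, had -2.04 in the refed pair, and -0.18 in the ad libitum pair, in which 17 of the bone marrow cells were rich in other-type markers. NK identity genes were lower in 13 of 14 and 12 of 13 members, with medians of -0.45 (refed) and -0.65 (ad libitum). The immature NK list was also lower in ad libitum bone marrow, in 6 of 8 members (median -0.65). It was higher in refed bone marrow, in 6 of 8 (0.40). In ad libitum mice the lower levels were thus not limited to mature NK genes.

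Cytotoxic and effector genes were lower in bone marrow too. Prf1, perforin, had 64.3 CPM in ad libitum bone marrow, against 209 CPM in ad libitum spleen (-1.63, -2.14 to -1.25). Gzmb had 142 CPM in refed bone marrow, against 644 CPM in refed spleen (-2.14, -2.49 to -1.88), and Ccl5 1453 CPM, against 5324 CPM (-1.87). In the other clusters Ccl5 was also lower in refed bone marrow, with 10011 CPM, against 18125 CPM in refed spleen. Ifng had -1.98 and Isg15, an interferon-induced ubiquitin-like protein, -3.68 in the refed pair, and Isg15 was at -2.28 without the cells rich in other-type markers. Tnfrsf9, an activation receptor, was lower in both pairs (-2.49 refed, -1.61 ad libitum). Rgs1, a regulator of G protein signalling, had -2.53 and Mxd1, an antagonist of MYC, -2.17 in the refed pair. Slamf7, a receptor of the SLAM family, had -1.67, Dennd4a -1.56, Bhlhe40, a transcription factor, -1.52 and Gzmc -2.81 in the ad libitum pair, the last -1.19 without its highest cell in each population.

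Mitotic genes separated the tissues in refed mice. Of 30 G2 and M phase genes, 29 were higher in refed bone marrow than in refed spleen, with a median of 0.84 and 25 intervals above 0. Ube2c had 545 CPM in refed bone marrow, against 163 CPM in refed spleen (1.71, 1.35 to 2.15), and Cdc20 128 CPM, against 36.0 CPM (1.70, 1.01 to 2.78). In ad libitum mice the same list was even, with 15 members higher, 15 lower and a median of -0.01, and Mki67 had 561 CPM in bone marrow and 547 CPM in spleen. The S phase list had a median of 0.42 in the ad libitum pair, with 23 of 28 higher, and -0.12 in the refed pair. Thinned cells gave 0.33 in the refed pair, where the median of all genes was -0.43 in that setting. S100a4 (1.86), Lgals3 (1.70) and Tnni1, a troponin (1.83), were also higher in refed bone marrow.

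The genes named as highest in bone marrow were mostly those of myeloid cells. Lyz2 had 2669 CPM in ad libitum bone marrow, against 3.32 CPM in ad libitum spleen, and its ratio of 8.33 was 2.44 without the cells rich in other-type markers. S100a9 (8.26) and S100a8 (7.31) were at 0.64 and -0.51 without those cells. Camp, Ngp, Chil3, Prtn3 and Hp had no UMI in ad libitum spleen, and were at least 77.8-fold, 41.7-fold, 26.5-fold, 20.4-fold and 17.9-fold higher in bone marrow against a floor of 3 UMIs in the spleen population. Without the cells rich in other-type markers Camp (0.71), Ngp (0.28), Chil3 (0.40) and Hp (0.28) had ratios under 1 on the log2 scale, and Prtn3 2.33. The ad libitum bone marrow cells just below the level, given above, are still in these values. In the refed pair Lyz2 had 3.03, Ifitm3, an interferon-induced membrane protein, 1.91 and H2-Ab1, a class II antigen-presenting chain, 3.02. Without the cells rich in other-type markers Ifitm3 was at 0.60, and H2-Ab1 was at 0.22 without its highest cell in each population.

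**Figure D5:**
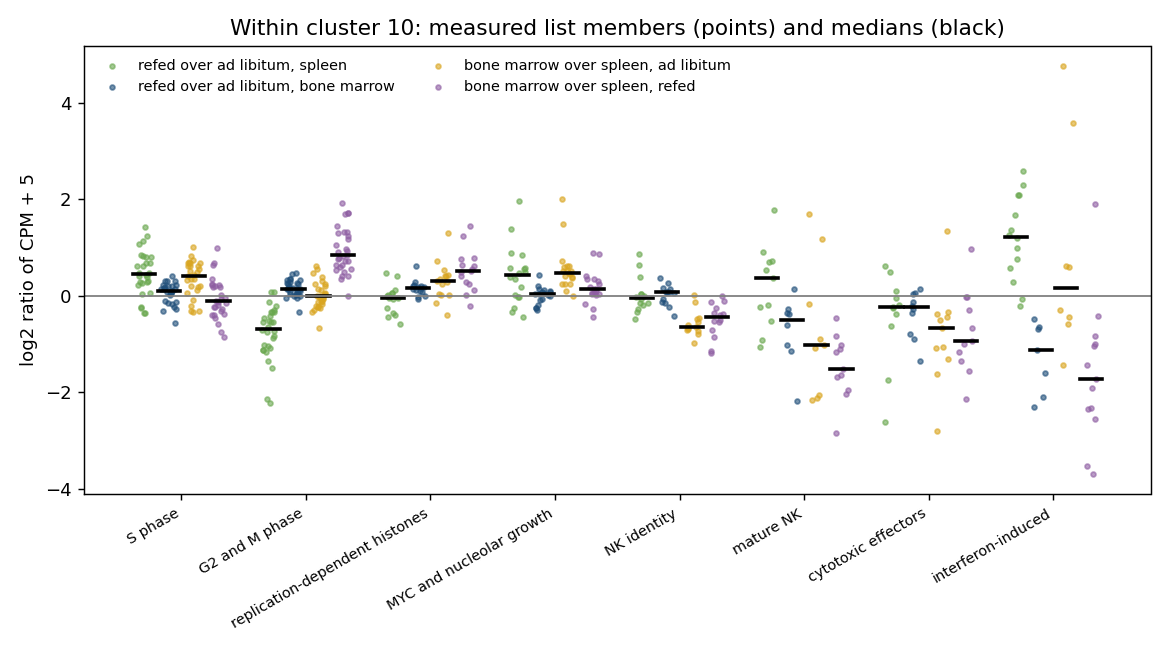
Log2 ratio of CPM + 5 within cluster 10 for measured members of 8 gene lists (points) and their medians (black bars), for refed over ad libitum cells in spleen (green) and bone marrow (blue) and for bone marrow over spleen cells in ad libitum (yellow) and refed (purple) mice. Most G2 and M phase genes lie below 0 in the green comparison (median -0.68) and above 0 in the purple one (0.84), and mature NK genes lie below 0 in the purple one (-1.53).

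The fasted cells of cluster 10 are described by their values alone. The 6 fasted bone marrow cells held 57 UMIs of Mki67, 109 of Top2a and 3 of Mcm5. Of these, 5 lay below the 0.5% level for other-type markers. Their median was 1.45% of UMIs for G2 and M phase genes and 0.147% for S phase genes. In the other bone marrow cells below that level the medians were 0.499% and 0.407% (91 ad libitum) and 0.594% and 0.375% (45 refed). The 9 fasted tumour cells below the 0.5% level had a median of 32486 UMIs. Of these, 7 had a UMI of Mki67 or Top2a and 7 had at least 3 NK cell markers. A cell among the 9 had 0.457% of its UMIs from monocyte or macrophage and neutrophil markers and 0.023% from NK cell markers. The cell of 85495 UMIs had 0.00351% from NK cell markers. The 3 ad libitum and 4 refed tumour cells below the level had medians of 46795 and 35663.5 UMIs, each with a UMI of Mki67 or Top2a. These medians were above those of spleen and bone marrow, but the 9 fasted cells ran from 1480 to 85495 UMIs.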

How the data were processed

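The authors deposited a matrix of UMI counts per cell and gene, built with seqc per the labels' protocols on mm10 per the submitters' processing notes, with a cluster number per cell, and separately a hashtag classification and the list of population names. Cluster and hashtag columns are the authors' labels, deposited as they are (other). The sources used here do not say how cells were filtered, clustered or classified. There were 13118 cells and 16800 gene columns, of which 33 cells had no hashtag call and 5606 were called doublets. Cluster 10 held 17938 to 2191964 UMIs per population. Gene loci came from GENCODE M21, which matched 16278 of 16789 symbols.

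Counts were summed per population and scaled to CPM. Ratios are log2 of CPM + 5, within populations for cluster 10 over the other clusters. Named were the 12 highest and 12 lowest ratios at 50 CPM or more with 1 sign in all 5 populations, and within cluster 10 the 8 highest and 8 lowest per pair at 100 CPM or more whose interval left out a ratio of 1 and whose sign held without the highest cell, besides list members. Naming left out gene models without a name, mitochondrial, ribosomal protein, haemoglobin and antigen receptor genes. Intervals are exact binomial (Clopper-Pearson for shares), for counting error only. Those of gene ratios were run on simulated counts drawn with counting error alone. That run cannot tell how the intervals do where cells differ from each other. A floor is 3 counts. The members and lists were chosen with earlier results of these data known. Alternatives were another pseudocount, no minimum level, TMM factors, totals that leave out mitochondrial and ribosomal protein genes, equal weight per cell, thinned cells, and leaving out cells of another type or each gene's highest cell. Tools were edgeR 4.0.16 (TMM factors only), scanpy 1.11.5 (Scrublet), scipy 1.17.1, numpy 2.4.6, pandas 2.3.3 and matplotlib 3.10.9 under Python 3.11.15.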

Additional observations from a re-analysis of the deposited data

Results flagged for a closer look

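Within cluster 10, the median log2 ratio of the G2 and M phase list in refed over ad libitum cells was -0.68 in spleen and 0.15 in bone marrow. The tissues had opposite signs, with 1 sample per group, and the difference between them was not tested.

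Hashtag doublets, which enter no comparison, made up 51.2% of the classified cells of cluster 10, against 42.5% in the other clusters, among which single clusters ranged from 22.6% to 80.3%.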

How the results depend on the processing

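No paired analysis was possible because each population was 1 sample and the labels give no replicate numbers. Alternatives without cells that Scrublet predicts as doublets were not run, because it predicted none. The limits are 1 sample per population, few cluster 10 cells in 5 of the populations, and counts of genes past 2-fold that depend on the settings. Without cells of another type the fasted tumour share was 1.17%. The UMI ratio of 3.77 was 3.52 for means and 3.59 without ribosomal protein and mitochondrial genes. Mki67 was detected in 68.5% of cluster 10 cells and 7.54% of other cells without thinning, and in 55.2% and 5.39% at 3000 UMIs, and Top2a in 76.2% and 16.8%, and in 62.1% and 11.5%.

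For cluster 10 over the other clusters, the 426 higher genes were 204 with 20 CPM added, and the 174 lower genes 302 with 1 CPM added, 50 with 20 CPM, 270 without ribosomal protein and mitochondrial genes in the totals, 1493 with thinned cells and 349 without each gene's highest cell. In refed over ad libitum spleen, higher and lower genes were 88 and 66 with 20 CPM, 918 and 692 without a minimum, 497 and 441 without ribosomal protein and mitochondrial genes, 590 and 522 with equal weight per cell, and 2609 and 1718 with thinned cells. In refed over ad libitum bone marrow, higher genes were 23 with 1 CPM, 5 with 20 CPM, 35 without a minimum, 35 without ribosomal protein and mitochondrial genes, 19 with equal weights, 791 with thinned cells and 5 without the highest cell. Lower genes were 42 with 20 CPM, 205 without a minimum, 950 with thinned cells and 32 without cells of another type.

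In bone marrow over spleen, ad libitum, higher genes were 114 with 20 CPM, 811 without a minimum, 444 without ribosomal protein and mitochondrial genes, 1473 with thinned cells, 183 without cells of another type and 432 without the highest cell. Lower genes were 45 with 20 CPM, 322 without a minimum, 440 with equal weights, 1670 with thinned cells and 88 without the highest cell. In the refed pair, higher genes were 44 with 20 CPM, 433 without a minimum, 336 without ribosomal protein and mitochondrial genes, 245 with equal weights and 1129 with thinned cells, and lower genes 77 with 20 CPM, 573 without a minimum, 520 with equal weights, 2149 with thinned cells and 172 without the highest cell. Thinned populations hold fewer UMIs by construction. The cause of the other moves was not tested.

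Values whose sign changed included the following 7. In refed over ad libitum spleen, the granzyme list median was 0.43 with thinned cells and the ILC1 list median 0.26 without each gene's highest cell. In refed over ad libitum bone marrow, Ilf2 was -0.75 with thinned cells, and S100a9 was 0.029 and S100a8 0.45 without cells of another type. In bone marrow over spleen, ad libitum, the ILC1 list median was 0.026 without a minimum and S100a8 -0.51 without cells of another type. Further list medians also changed sign. In refed over ad libitum spleen, the interferon-induced list was 1.22, and -0.16 without cells of another type. In refed over ad libitum bone marrow, the NK identity list was 0.07, and -0.07 without cells of another type. The S phase list there was 0.10 and at lowest -0.03. In refed bone marrow over refed spleen it was -0.12 and at highest 0.33. The G2 and M phase median for cluster 10 over the other clusters lay between 1.70 and 2.85 over 16 settings.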
